A study of Zea mays with 24 samples.

Results

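The transcriptome of maize shoots deprived of iron was compared with that of shoots on complete nutrient solution. Seedlings of SKV616, an inbred line of quality protein maize, were raised hydroponically. The –Fe plants received no iron and kept their zinc for 12 days after transplanting, and the +Fe+Zn plants, the control, had both metals over the same 12 days. Shoot RNA of each group was hybridised to 3 Affymetrix maize genome arrays (biological replicates 1 to 3), 6 of the 24 arrays of the series. The other 18 arrays came from shoots without zinc (–Zn), shoots without both metals (–Fe–Zn) and the roots of all 4 treatments, in the same line and at the same time. All 17621 probe sets that are not array controls, of 17734 on the array, belong to the comparison, with no selection by their values. The shoots were of 1 genotype and 1 time point.

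Grasses take iron from the rooting medium as a chelate. They release mugineic acids, made from methionine through nicotianamine, and bring the ferric complex back through YS1 (yellow stripe 1) transporters. In leaves, most iron goes into the chloroplast, where photosystem I, ferredoxins and the enzymes of nitrite and sulfite reduction carry iron-sulfur clusters or heme, and ferritin stores iron that is not in use. Leaves that run short of iron turn yellow between the veins.

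A level below is the deposited log2 value of a probe set, a short set of probes that reports 1 transcript. A difference is the mean of 3 –Fe arrays minus the mean of 3 +Fe+Zn arrays on the log2 scale, given ± its standard error (SE) from the fit. A probe set rose or fell where the Benjamini-Hochberg adjusted p of limma, over all probe sets of the array, was under 0.05. The annotation used here names a gene for 1452 probe sets, which cover 1108 genes, and the study's own gene table names others. Of several probe sets of a gene, the one with the highest mean over 24 arrays stands for it. The lowest values of the scale form a floor at 2.24, where 5111 probe sets (29.0%) lay on all 6 arrays.

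Replicates resembled each other closely, with Pearson correlations across probe sets of 0.997 among the –Fe arrays and 0.998 among the controls, against 0.948 to 0.956 between the groups. Replicate 2 of –Fe lay nearest to the controls more often than the other –Fe replicates, for 739 of 1562 probe sets that were at least 2-fold higher (47.3%) and for 604 of 1309 that were at least 2-fold lower (46.1%). Summed leaf marker levels (22 probe sets) were 17.5 to 17.5 in –Fe and 17.4 to 17.5 in control shoots, and 10.4 to 10.7 in –Fe roots. Summed root marker levels (11 probe sets) were 6.44 to 6.62 in –Fe and 6.85 to 7.24 in control shoots, against 9.39 to 9.67 in –Fe roots. The array also carries control probe sets along the cyclophilin, GAPDH and ubiquitin transcripts. Their middle probe sets minus their 3′ probe sets averaged -6.27 ± 0.33 in –Fe and -9.26 ± 0.08 in +Fe+Zn shoots (SD, n = 3 each), so the –Fe arrays held more signal away from the 3′ end. The same measure was -9.81 ± 0.11 in –Fe–Zn and -9.27 ± 0.23 in –Zn shoots. Its part in the gene differences was not tested. A fit with this measure as a covariate is quoted below for named genes where it ended a call or turned a direction, and for gene groups whose counts it moved. The 3 root –Fe–Zn arrays held 89.6% of the spread of the measure within groups, so the covariate values for shoots rest mainly on those root arrays. Without them, in a fit chosen after seeing the data, the median SE over 282 named probe sets was 0.67, against 0.29 with them. Of 17 turned directions 2 were still turned. That fit ended the call for 145 of the 282 named probe sets and turned 13. At adjusted p it left 388 probe sets higher and 282 lower, against 2999 and 2913 with no covariate. Its values are not quoted gene by gene, so genes below without a covariate value may have lost their call in it.

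By the threshold of the study's methods (p under 0.05 and at least 2-fold), 1562 probe sets were higher (8.86%) and 1309 were lower (7.43%) in –Fe than in +Fe+Zn shoots. After adjustment, 2999 probe sets rose (17.0%) and 2913 fell (16.5%), 33.6% in either direction, with a median difference of 0.00 over all probe sets. These shares are the background for each gene group below. Differences of 4-fold or more numbered 443 upward and 310 downward, and 50 upward and 27 downward differences reached 16-fold. In 4393 probe sets (24.9%) all 3 –Fe arrays lay above all 3 controls, and in 4507 (25.6%) they lay below.

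**Figure D1:**
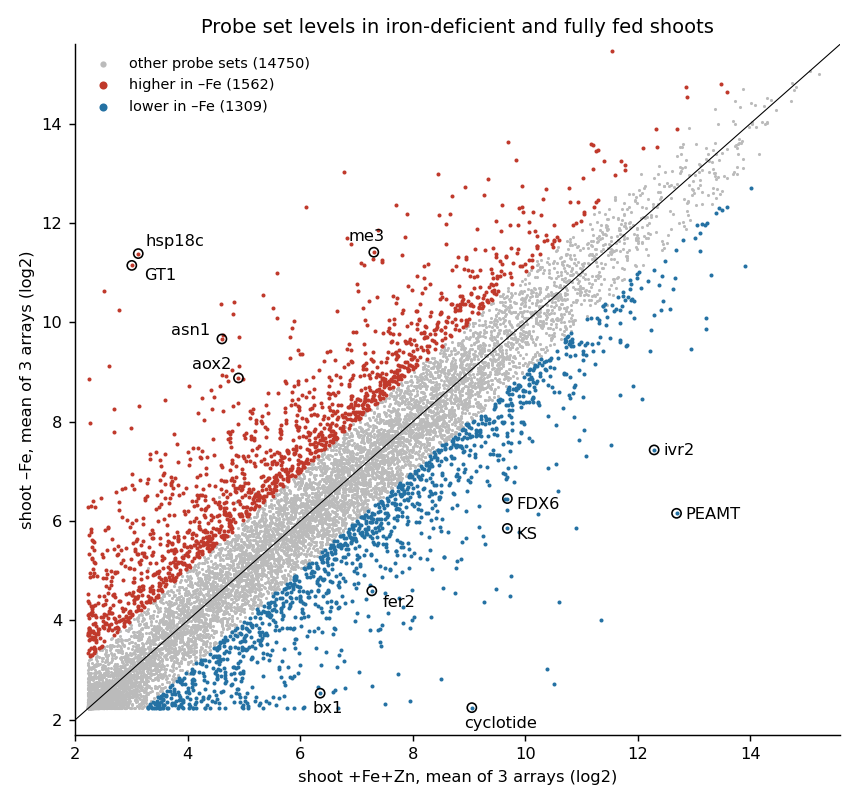
Mean level of each of 17621 probe sets in –Fe shoots (y axis, log2, 3 arrays) against +Fe+Zn shoots (x axis, log2, 3 arrays), with the line of equal levels. Red points were at least 2-fold higher in –Fe (1562) and blue points at least 2-fold lower (1309) at p under 0.05, and circles mark named genes, of which hsp18c, GT1, asn1, aox2 and me3 lie above the line and ivr2, PEAMT, FDX6, KS, fer2, bx1 and cyclotide below it.

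Many metal transport and iron storage transcripts moved, some of them by large amounts. The transporter gene ys1, which takes up ferric phytosiderophores, was high in iron-starved shoots, with levels of 11.29, 11.01 and 11.10 on the –Fe arrays against 8.82, 8.65 and 8.81 on the control arrays. The groups did not overlap, and ys1 rose 5.18-fold (difference 2.37 ± 0.33, adjusted p = 1.33e-05). A probe set that the study names only as an oligopeptide transmembrane transporter rose 7.03-fold, with levels of 10.73, 10.50 and 10.98 in –Fe and 7.82, 7.81 and 8.13 in control shoots (adjusted p = 2.16e-08). A further probe set, named for metal ion transmembrane transporter activity, rose by 1.34 ± 0.21.

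Several carriers fell instead. Zinc transporter 4 was at 4.77, 4.73 and 4.37 in –Fe shoots against 9.62, 9.55 and 9.24 in controls, a 28.8-fold fall (difference -4.85 ± 0.27, adjusted p = 1.73e-10). ZRT-IRT-like protein 5, of the ZIP family of divalent metal carriers, was at 3.68, 4.58 and 3.44 in –Fe and 7.74, 7.36 and 7.25 in control shoots (difference -3.55 ± 0.44). Both genes lay well below every control array. ABC transporter C family member 14 fell by 10.3-fold (4.80, 4.58 and 4.45 in –Fe against 8.09, 7.87 and 7.97 in controls), and NRAMP transporter1, of a family that carries manganese and iron, had a difference of -1.30 ± 0.21. One probe set of a cation transmembrane transporter differed by -2.08 ± 0.55, and by 0.23 (adjusted p = 0.855) with the middle-to-3′ signal as a covariate. In all, 3 of 12 metal transport probe sets rose and 5 fell, with a median difference of -0.40. The remaining 4, a ferric-chelate reductase (-0.39 ± 0.24), a metal ion transporter (-0.29 ± 0.14), a heavy metal transport/detoxification protein (-0.39 ± 0.15) and a further cation transporter (-0.41 ± 0.18), did not pass the test. The study chose its named transporters on these samples, so their directions are not independent evidence. Its table gives –Fe shoot values of the opposite sign for NRAMP transporter1, zinc transporter 4 and the oligopeptide transporter. Its values for zinc transporter 4 and the oligopeptide transporter are under its own 2-fold minimum. For the other named transporters that rose or fell here, its values have the same sign. The reason for the disagreement was not tested.

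The genes that make mugineic acids behaved otherwise in the shoot. Nicotianamine synthase 3, whose product carries iron in the phloem and feeds the mugineic acid pathway, was at 12.70, 12.77 and 12.66 in –Fe and 13.37, 13.38 and 13.27 in control shoots. It fell slightly, by 0.63 ± 0.14 (adjusted p = 0.00178), and the call was lost with the covariate (-0.34, adjusted p = 0.245). Deoxymugineic acid synthase, DMAS1, had levels of 7.01, 6.24 and 6.48 in –Fe and 7.31, 7.25 and 7.46 in control shoots, and its difference of -0.76 ± 0.49 did not pass the test (adjusted p = 0.313). With the covariate it was -3.16 (adjusted p = 8.54e-09). IDI2, named after an iron-deficiency-induced gene of barley roots, differed by -0.48 ± 0.29 (adjusted p = 0.269), and by -1.62 with the covariate (adjusted p = 0.00029). The 4 probe sets of nas1 and the probe set of nas2 stayed near the floor, between 2.24 and 3.02 on all 6 arrays. Of the 8 probe sets of this pathway, 0 rose and 1 fell. The number of falls depended on the fit, with 4 with the covariate, 3 without the root –Fe–Zn arrays and 2 with only the shoot arrays or only the 6 arrays.

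Iron storage transcripts were low in –Fe shoots. The ferritin gene fer1 had levels of 7.69, 8.44 and 7.67 in –Fe and 10.38, 10.74 and 10.51 in control shoots, a 6.09-fold fall (difference -2.61 ± 0.25, adjusted p = 1.81e-07). The second ferritin gene, fer2, was at 4.33, 5.15 and 4.31 in –Fe and 7.27, 7.31 and 7.23 in control shoots, 6.39-fold lower. In both, replicate 2 was the highest of the –Fe arrays and still lay below every control. A metallothionein-like protein of type 2, a small cysteine-rich metal binder, fell 10.5-fold (6.99, 7.28 and 7.17 in –Fe against 10.44, 10.60 and 10.57 in controls), and mtl2 fell by 1.42 ± 0.25 to levels near the floor. The 2 other probe sets of the group were at the floor on all 6 arrays, so 4 of 6 fell and 0 rose (1 with the covariate). For the type 2 metallothionein the study's table gives a positive –Fe shoot value, opposite to the fall here.

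**Figure D2:**
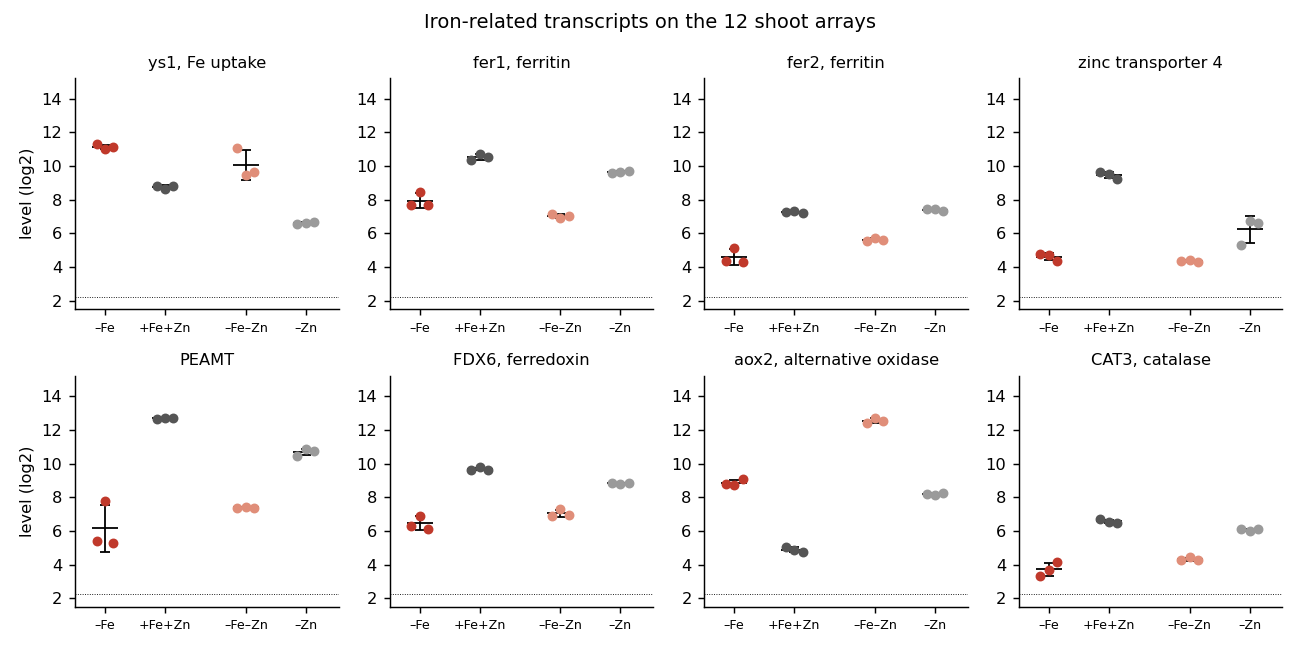
Levels (log2) of 8 transcripts on the 12 shoot arrays, –Fe beside +Fe+Zn and –Fe–Zn beside –Zn. Points are arrays, bars are the mean ± SD of 3, and the dotted line is the floor at 2.24. In both pairs ys1 and aox2 lay higher without iron, and fer1, fer2, zinc transporter 4, PEAMT, FDX6 and CAT3 lay lower.

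Transcripts of iron-containing proteins did not move as 1 group. FDX6, a ferredoxin, was at 6.31, 6.92 and 6.13 in –Fe and 9.64, 9.78 and 9.62 in control shoots, 9.37-fold lower (difference -3.23 ± 0.21, adjusted p = 1.27e-09). The catalase gene CAT3, for a heme enzyme that breaks down hydrogen peroxide, had levels of 3.33, 3.71 and 4.14 in –Fe and 6.69, 6.55 and 6.50 in control shoots and fell 7.22-fold. Its paralogue cat1 was 3.01-fold higher, 7.58, 7.03 and 7.28 in –Fe against 5.88, 5.79 and 5.44 in controls (adjusted p = 0.000265), and this call was lost with the covariate (0.51, adjusted p = 0.243). Of 20 probe sets for ferredoxins and their enzymes, 3 rose and 6 fell, with a median difference of 0.00. Among the lower were ferredoxin-NADP reductase fnr1 (-1.31 ± 0.17) and pgr5, needed for cyclic electron flow around photosystem I. Levels of pgr5 were 11.15, 12.48 and 12.00 in –Fe and 12.82, 12.88 and 12.88 in control shoots, and without –Fe replicate 1, the lowest, the difference of -0.98 became -0.62 and no longer passed (adjusted p = 0.0833). It did not pass with the covariate either (-0.49, adjusted p = 0.445). The brightest probe set of ferredoxin 3, fdx3, differed by 0.14 ± 0.10. Its dimmer probe set rose by 2.01 ± 0.36, a call lost with the covariate (0.36, adjusted p = 0.289).

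The alternative oxidases, di-iron enzymes that pass electrons from ubiquinol to oxygen without pumping protons, rose. Levels of aox2 were 8.82, 8.75 and 9.07 in –Fe and 5.06, 4.88 and 4.77 in control shoots, a 15.8-fold rise (difference 3.98 ± 0.12, adjusted p = 1.04e-13). Its relative aox1 rose 6.55-fold, with 9.09, 8.89 and 9.15 in –Fe against 6.42, 6.10 and 6.47 in controls. Neither gene had overlapping groups. The rest of the respiratory list changed less, among them ANT1, the ADP/ATP carrier (0.48 ± 0.10), formate dehydrogenase fdh1 (0.44 ± 0.12, lost with the covariate) and ATP2, an ATP synthase subunit (-0.57 ± 0.06). In all, 5 of 18 respiratory probe sets rose and 2 fell, against 3 and 6 with the covariate.

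Among pigment genes, 2 of 7 probe sets for chlorophyll, heme and hemoglobin rose (1 with the covariate) and 1 fell. The hemoglobin gene Hb rose by 1.32 ± 0.28 and les22, for uroporphyrinogen decarboxylase of the shared tetrapyrrole path, by 1.36 ± 0.36. The gene elm1, of phytochrome chromophore synthesis, fell by 0.97 ± 0.28. Calls for Hb (0.86, adjusted p = 0.143) and elm1 (-0.08, adjusted p = 0.976) were lost with the covariate. Ferrochelatase, which puts iron into heme, differed by -0.15 ± 0.12, lls1, the iron-dependent oxygenase of chlorophyll breakdown, by -0.21 ± 0.39 (-1.53 with the covariate, adjusted p = 0.0156), and oy1, a magnesium chelatase subunit, by 0.54 ± 0.28, and none of these passed the test. In the carotenoid and isoprenoid group, 4 of 12 probe sets rose and 0 fell (1 with the covariate). BCH2, a beta-carotene hydroxylase with a di-iron centre, rose 4.46-fold (difference 2.16 ± 0.19, adjusted p = 5.51e-08), with no overlap of the groups. Hds1, an iron-sulfur enzyme of plastid isoprenoid synthesis, rose by 1.35 ± 0.28, zeta-carotene desaturase zds1 by 0.76 ± 0.06 and phytoene synthase psy2 by 0.39 ± 0.14 (adjusted p = 0.0421). The psy2 call was lost with the covariate (adjusted p = 0.202) and without any 1 of the 6 arrays except control replicate 2.

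Sulfate and nitrate reduction both depend on iron cofactors. In the sulfur group 6 of 10 probe sets fell and 0 rose (1 with the covariate), with a median difference of -0.74. The gene apr, for the iron-sulfur enzyme APS reductase, was at 10.36, 10.42 and 10.63 in –Fe and 11.72, 11.90 and 12.05 in control shoots (difference -1.42 ± 0.20, adjusted p = 1.60e-05). Sulfite reductase, sir, was at 9.54, 9.94 and 9.42 in –Fe and 10.78, 10.89 and 10.72 in control shoots (difference -1.16 ± 0.17). The groups were separate in each. Serine acetyltransferase sat3 (-1.01 ± 0.14) and cystathionine gamma-synthase cgs1 (-1.74 ± 0.13), which lead into cysteine and methionine, also fell.

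In the nitrogen group 8 of 19 probe sets rose and 3 fell. Asparagine synthetase asn1, which stores nitrogen as asparagine and is known to respond to sugar shortage, rose 33.3-fold at its brightest probe set (9.76, 9.41 and 9.82 in –Fe against 4.76, 4.76 and 4.31 in controls). At the other probe set the levels were 10.57, 10.50 and 10.83 in –Fe against 2.47, 2.24 and 2.81 in controls, where 1 control array was at the floor. Nitrate reductase NNR1, a heme and molybdenum enzyme, fell 6.87-fold (9.42, 9.54 and 9.32 in –Fe against 12.26, 12.16 and 12.20 in controls, difference -2.78 ± 0.33, adjusted p = 2.52e-06). Glutamine synthetases rose, GLN6 by 1.87 ± 0.22 and gs2 by 1.11 ± 0.23 (0.98 with the covariate, adjusted p = 0.0518), and so did the nitrite reductase gene NIR at its brighter probe set (0.63 ± 0.15, adjusted p = 0.00251). With the covariate, 5 probe sets of the group rose.

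Of 13 photosystem and antenna probe sets, 2 rose and 3 fell, and 8 did not pass, with a median difference of -0.11. The brightest probe set of lhcb6, an antenna protein of photosystem II, was at 9.03, 10.68 and 8.68 in –Fe and 12.95, 12.88 and 12.97 in control shoots (11.1-fold lower), with replicate 2 between the other –Fe arrays and the controls. Another probe set of this gene went the opposite way, 8.83, 8.38 and 8.31 in –Fe against 4.28, 5.03 and 4.09 in controls, so no direction can be given for lhcb6 as a gene. The photosystem I subunit gene psan1 fell by 1.24 ± 0.26, a call lost with the covariate (-0.75, adjusted p = 0.164). Other antenna genes did not pass, among them Cab-m7 (-0.18 ± 0.36), lhcb5 (-0.11 ± 0.29) and psbs1 (0.04 ± 0.41).

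Carbon fixation transcripts rose in 5 of 20 probe sets and fell in 1 (2 with the covariate). The NADP-malic enzyme me3, which releases carbon dioxide in bundle sheath chloroplasts, was at 11.61, 11.36 and 11.26 in –Fe and 7.23, 7.42 and 7.27 in control shoots, 17.2-fold higher (adjusted p = 2.03e-12). Phosphoenolpyruvate carboxylase pep1, the first enzyme of the C4 cycle, rose 3.68-fold (14.90, 14.70 and 14.62 in –Fe against 12.90, 12.79 and 12.90 in controls). PPCK1, the kinase that activates this carboxylase, fell 4.38-fold (8.61, 8.91 and 8.71 in –Fe against 10.79, 10.87 and 10.97 in controls). A Rubisco small subunit probe set rose by 4.27 ± 1.45 (adjusted p = 0.0292). Its SE was large, the call was lost without any single array of the 6, and with the covariate the difference was -2.54. The Rubisco activase rca1 differed by -0.49 ± 0.34 and carbonic anhydrase by -0.10 ± 0.42, and neither passed. For the carbonic anhydrase it names, the study's table gives a positive –Fe shoot value.

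Transcripts for chloroplast gene expression and protein import rose in 14 of 26 probe sets and fell in 0, with a median difference of 0.75. The import receptor toc34B was at 6.64, 6.79 and 6.71 in –Fe and 4.23, 4.15 and 4.08 in control shoots, 5.89-fold higher. The splicing factor rnc1 rose by 1.73 ± 0.38, the RNA-binding protein crp1, required for translation of cytochrome f and related messages, by 1.46 ± 0.21, and Hcf106C, of the thylakoid Tat pathway, by 1.48 ± 0.17. A further riser, rpo2, had levels of 8.31, 8.15 and 8.22 in –Fe and 6.14, 5.98 and 5.84 in control shoots. A probe set that the study lists as the apocytochrome f precursor rose 36.7-fold, 10.74, 10.36 and 10.54 in –Fe against 5.45, 5.36 and 5.23 in controls (adjusted p = 1.74e-05). Cytosolic ribosomal protein transcripts moved the same way, 18 of 28 up and 1 down with a median of 0.65, led by rpl30 (2.41 ± 0.12) and RPS21 (2.32 ± 0.35). The 1 fall was rpp2b (-0.74 ± 0.28), and 0 probe sets of the group fell when any single array of the 6 was left out, against 3 with the covariate. The rises of rpp1a (-0.07 with the covariate) and RP-P0 (-0.21) turned to small negative values.

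The methionine cycle supplies both nicotianamine and methyl groups. Its most changed gene was PEAMT, phosphoethanolamine methyltransferase of choline synthesis, at 5.40, 7.77 and 5.30 in –Fe and 12.67, 12.70 and 12.69 in control shoots (difference -6.53 ± 0.43). The –Fe arrays differed among themselves by over 2 log2 units, with replicate 2 the highest, while the controls were nearly equal. KS, named for kaurene synthase of the gibberellin path, had a similar spread, 5.18, 7.13 and 5.24 in –Fe against 9.75, 9.71 and 9.58 in controls. Of 13 probe sets in the methionine and methyl transfer group 2 rose and 5 fell. S-adenosylmethionine synthetase 1 fell by 0.98 ± 0.27, whereas the study's table gives it a positive –Fe shoot value. The homocysteine methyltransferases split, HMT-3 up by 1.00 ± 0.15 and HMT-2 lower (-1.11 ± 0.18), a fall lost with the covariate (-0.52, adjusted p = 0.0781).

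Sucrose and starch genes fell more often than they rose, 11 against 4 of 45 probe sets. Vacuolar invertase ivr2, which splits sucrose in growing tissue, was at 7.39, 7.50 and 7.41 in –Fe and 12.34, 12.26 and 12.27 in control shoots. The starch genes bt2, the small subunit of ADP-glucose pyrophosphorylase (5.22, 5.51 and 5.46 in –Fe against 7.26, 7.70 and 7.66 in controls, 4.42-fold lower), and iso2, an isoamylase (5.94, 5.97 and 5.71 in –Fe against 8.47, 8.62 and 8.38 in controls, 6.11-fold lower), fell with no overlap. Sucrose phosphate synthase sps1 fell by 1.65 ± 0.25 and beta-amylase BMY1 fell by 2.14 ± 0.49, the second not with the covariate (-1.49, adjusted p = 0.153). For the sucrose phosphate synthases it names, the study's table gives positive –Fe shoot values. The cell wall invertase incw1 rose instead (7.80, 7.83 and 7.62 in –Fe against 5.66, 5.64 and 5.65 in controls, 4.28-fold higher). Sucrose synthases sh1 (0.34 ± 0.22) and sus1 (0.30 ± 0.38) did not pass.

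In glycolysis and fermentation, 8 of 32 probe sets rose and 5 fell, against 5 and 12 with the covariate. GAPN, the cytosolic enzyme that makes NADPH from glyceraldehyde 3-phosphate, fell 5.66-fold (5.38, 5.71 and 5.23 in –Fe against 7.99, 7.94 and 7.90 in controls). The beta subunit of the pyrophosphate-dependent phosphofructokinase fell by 1.33 ± 0.09, and phosphoglucose isomerase phi1 rose by 1.18 ± 0.18. The enolase eno1 (0.06 ± 0.05) and the cytosolic GAPDH gene GPC1 (0.28 ± 0.20) did not pass at their brightest probe sets, while a dimmer probe set rose in each (eno1 2.34, GPC1 3.55), that of eno1 not with the covariate (-0.01). Pyruvate decarboxylase pdc2 was at the floor on all 3 –Fe arrays against 4.43, 4.26 and 4.51 in controls.

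Chaperones formed the group with the highest share of rises, 11 of 14 probe sets with 0 falls and a median difference of 2.31. The small heat shock protein gene hsp18a, for a holdase of unfolded proteins, was at 11.60, 11.61 and 11.53 in –Fe and 6.88, 6.92 and 6.90 in control shoots, 25.7-fold higher (difference 4.68 ± 0.22, adjusted p = 2.82e-11). Its relative hsp18f was at 11.15, 11.15 and 11.13 in –Fe and 7.10, 7.16 and 7.14 in control shoots. The chloroplast small heat shock protein hsp26 was at or near the floor in controls (2.24, 2.29 and 2.38) and at 5.63, 5.71 and 5.09 in –Fe. The disaggregase hsp101 rose by 2.50 ± 0.30, the chaperonin CPN60II by 2.13 ± 0.17 and hsp70-4 by 1.21 ± 0.35. The heat shock factor hsfb, at a difference of 0.21 ± 0.26, did not pass.

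The folding machinery of the endoplasmic reticulum rose in 11 of 29 probe sets and fell in 4 (2 with the covariate). The lumenal HSP70 bip1 was at 11.96, 11.86 and 12.14 in –Fe and 8.68, 8.47 and 8.60 in control shoots, 10.6-fold higher (difference 3.40 ± 0.12, adjusted p = 9.87e-13). The lectin chaperones followed, calreticulin crt2 at 10.46, 10.47 and 10.38 in –Fe and 7.02, 7.21 and 7.45 in control shoots and calnexin CNX at 11.29, 11.06 and 11.16 in –Fe and 9.96, 9.94 and 10.06 in control shoots. Protein disulfide isomerase pdi rose by 3.06 ± 0.51, and by 1.00 with the covariate, which did not pass (adjusted p = 0.129).

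**Figure D3:**
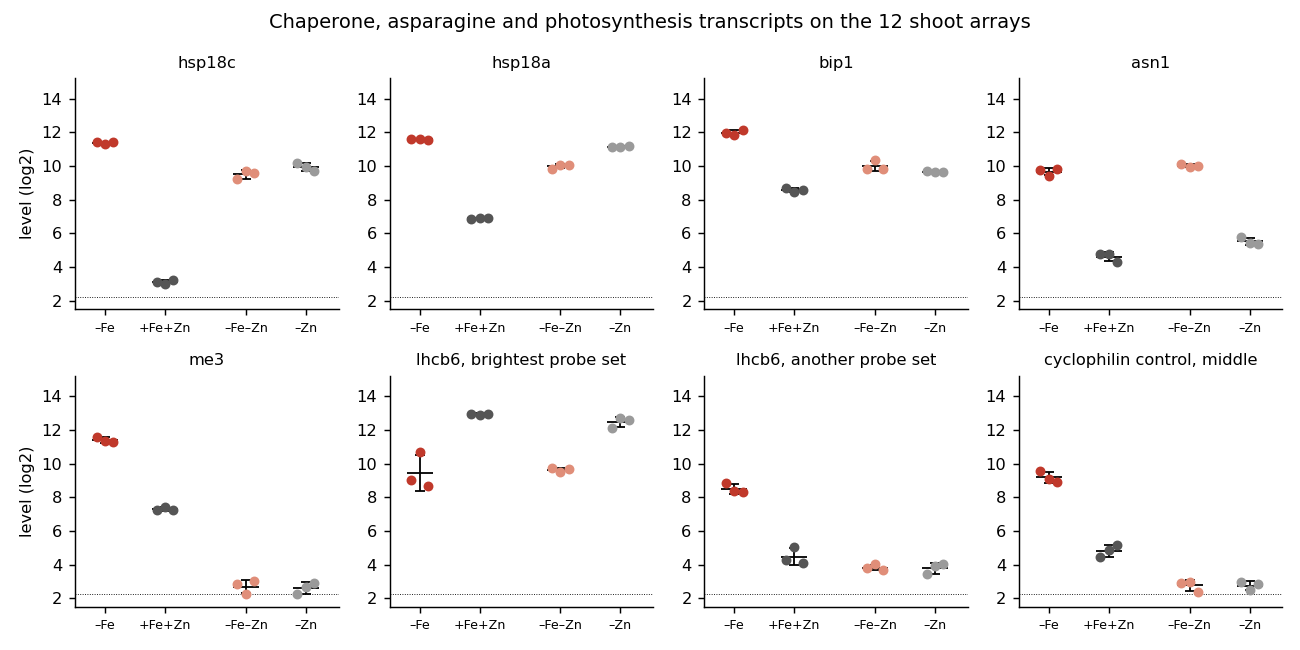
Levels (log2) on the 12 shoot arrays for 3 chaperones, asn1, me3, 2 probe sets of lhcb6 and the middle probe set of the cyclophilin control, –Fe beside +Fe+Zn and –Fe–Zn beside –Zn. Points are arrays, bars are the mean ± SD of 3, and the dotted line is the floor at 2.24. asn1 was higher without iron in both pairs, hsp18c, hsp18a, bip1, me3 and the cyclophilin probe set were higher without iron where zinc was supplied, bip1 differed by 0.34 in the pair without zinc and did not pass there (adjusted p = 0.0626), and the lhcb6 probe sets differed in direction in –Fe.

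Detoxification genes split. Of 22 probe sets for catalases, peroxidases and superoxide dismutases 8 rose (5 with the covariate) and 5 fell. The cytosolic copper-zinc superoxide dismutase sod2 rose by 2.54 ± 0.38 and thioredoxin trxh2 by 2.41 ± 0.34. Glutathione S-transferases, which conjugate glutathione to reactive compounds, rose in 8 and fell in 7 of 35 probe sets. These counts are not far from the 17.0% and 16.5% over all probe sets. Among them gst19 was at 10.56, 10.45 and 10.53 in –Fe and 7.43, 7.28 and 7.35 in control shoots (8.9-fold higher), gst42 at 7.63, 7.58 and 7.70 in –Fe and 5.83, 5.87 and 5.91 in control shoots (3.39-fold higher) and gst31 at 6.54, 6.52 and 6.57 in –Fe and 8.62, 8.70 and 8.88 in control shoots (4.57-fold lower). Proteases and their inhibitors rose in 9 and fell in 3 of 23 probe sets. LON2, a Lon protease, rose by 1.82 ± 0.12. The cysteine protease gene mir3 rose by 1.13 ± 0.21, a call lost with the covariate (0.68, adjusted p = 0.0923).

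Aquaporins, the water channels, fell in 15 and rose in 3 of 36 probe sets, with a median difference of -0.24. PIP1-3 of the plasma membrane was at 10.14, 10.85 and 10.27 in –Fe and 12.46, 12.39 and 12.50 in control shoots, 4.08-fold lower. TIP2-1 of the vacuole was at 9.27, 9.65 and 9.33 in –Fe and 11.07, 10.98 and 11.02 in control shoots, 3.05-fold lower. The rise of TIP1-1 (0.75 ± 0.18) was gone with the covariate (-0.01).

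Cellulose synthases fell in 6 and rose in 3 of 13 probe sets, with a median of -0.54. CesA-7 (-1.14 ± 0.15) and CesA-2 (-1.11 ± 0.17) fell, while CesA-3 was 12.1-fold higher (8.38, 8.09 and 8.19 in –Fe against 4.60, 4.77 and 4.50 in controls). The expansin expa1, which loosens walls during growth, was at 3.96, 3.95 and 4.08 in –Fe and 6.90, 7.06 and 6.98 in control shoots, 7.9-fold lower, and 6 of 30 expansin and wall protein probe sets fell and 2 rose. With the covariate 6 of these probe sets rose. In the lignin group 4 of 7 fell and 2 rose. BM1, the cinnamyl alcohol dehydrogenase, was 4-fold lower (8.58, 8.68 and 8.51 in –Fe against 10.78, 10.61 and 10.39 in controls), with pal3 (-1.75 ± 0.42), 4CL (-1.41 ± 0.18) and cncr1 (-1.28 ± 0.23) lower too, and pOMT1 (2.88 ± 0.18) and the laccase LAC1 (0.93 ± 0.15) higher. Tubulins, profilins and actin-depolymerizing factors fell in 10 and rose in 3 of 31. The profilin prf1 was at 2.46, 2.83 and 2.50 in –Fe and 6.72, 6.56 and 6.55 in control shoots, and the beta-tubulin tub5 fell by 1.83 ± 0.12.

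Markers of dividing cells had a summed level of 8.92 to 8.96 in –Fe and 9.54 to 9.62 in control shoots. Of their 30 probe sets 5 fell and 1 rose, and 13 lay at the floor on all –Fe arrays and 14 on all control arrays. The falls were about the 16.5% over all probe sets, and the median difference of the group was -0.00045. The cyclin cycD2 was at 6.47, 6.37 and 6.08 in –Fe and 8.13, 7.96 and 7.96 in control shoots (3.28-fold lower) and histone his1 fell by 1.17 ± 0.19. The centromere histone cenH3 fell by 1.39 ± 0.33, a call lost with the covariate (-0.05, adjusted p = 1), and the replication clamp gene pcna1 fell by 0.52 ± 0.18 and was at 0.29 with it. With the covariate 7 probe sets of the group rose. The homeobox gene knox7 rose by 1.96 ± 0.23. For the lower summed level, fewer dividing cells and less of these transcripts per cell cannot be told apart in bulk shoots. Chromatin regulators rose in 22 and fell in 11 of 78 probe sets, with the histone deacetylase hda113 up by 1.55 ± 0.23 and the high mobility group gene hmg2 lower (-1.33 ± 0.19).

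Hormone genes changed in both directions. Jasmonate and lipoxygenase probe sets fell in 8 and rose in 3 of 14, with a median of -0.79. The 9-lipoxygenase lox3 was 15.7-fold higher (11.42, 11.21 and 11.17 in –Fe against 7.18, 7.35 and 7.34 in controls). The jasmonate synthesis genes aoc1 (5.68, 5.83 and 5.64 in –Fe against 6.83, 6.82 and 6.65 in controls) and opr7 (-1.26 ± 0.16) were lower. A further member of the list, opr5, was lower too (-1.96 ± 0.21). The allene oxide synthase aos1 rose by 1.78 ± 0.41, a call lost with the covariate (0.02, adjusted p = 1).

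In the abscisic acid and gibberellin group 6 of 18 rose and 3 fell. The dehydrins dhn2 (0.83 ± 0.10) and rab17 (2.02 ± 0.27), markers of water deficit and abscisic acid, rose. The gibberellin receptor GID1L2 fell 7.7-fold, 4.23, 5.04 and 4.41 in –Fe against 7.45, 7.52 and 7.54 in controls. The stress gene asr1 did not pass at its brightest probe set (-0.29 ± 0.15) and rose at a dimmer one (4.87). For cytokinin, 4 of 23 rose and 8 fell. The phosphotransfer proteins HP3 (-1.59 ± 0.12) and hp2 (-1.04 ± 0.17) and the receptor hk3 (-1.30 ± 0.15) were lower, while cytokinin oxidase cko3, which degrades the hormone, rose by 0.72 ± 0.09. Ethylene (2 up, 2 down of 9) and auxin genes (2 up, 2 down of 13) lay near the shares over all probe sets. With the covariate the auxin counts were 1 and 4. The receptor etr2 was up by 1.79 ± 0.21 and an Aux/IAA repressor, IAA17, was lower (-1.55 ± 0.25). For the gene it names IAA17 the study's table gives a positive –Fe shoot value, and the reason for the disagreement was not tested.

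Defence chemistry showed large single changes. For benzoxazinoids, the defence compounds of young maize, bx1, which opens the pathway, fell 14.1-fold (2.47, 2.70 and 2.45 in –Fe against 6.46, 6.43 and 6.17 in controls). The iron-dependent dioxygenase gene bx6 was at 8.97, 9.09 and 8.79 in –Fe and 10.74, 10.79 and 10.66 in control shoots (difference -1.78 ± 0.33). The glucosidase glu1, which frees the toxin from its glucoside, was at 7.47, 7.41 and 7.29 in –Fe against 4.32, 2.98 and 3.00 in controls (difference 3.95 ± 0.24), while glu2 fell by 1.53 ± 0.27. The sesquiterpene cyclase stc1 was 8.54-fold higher (7.35, 7.01 and 7.01 in –Fe against 4.18, 4.13 and 3.79 in controls). In this group 2 of 11 rose and 5 fell. IRL, named for isoflavone reductase-like protein, was at 4.28, 4.59 and 4.46 in –Fe and 7.99, 7.59 and 7.67 in control shoots, and the anthocyanin gene a2 rose by 1.55 ± 0.18.

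**Figure D4:**
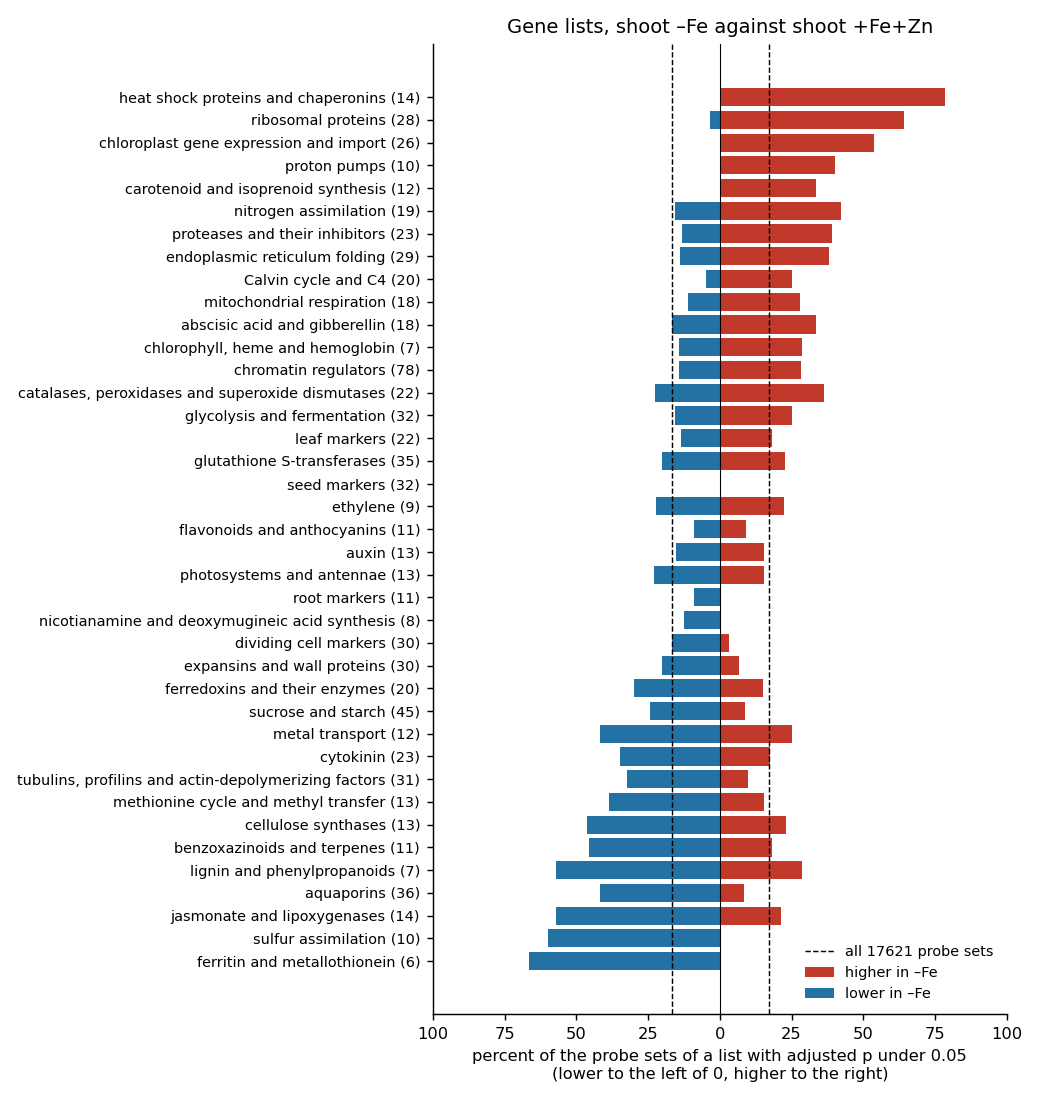
Share of the probe sets of each gene list (number in brackets, lists of at least 6) that were higher (right, red) or lower (left, blue) in –Fe than in +Fe+Zn shoots at adjusted p under 0.05. Dashed lines give the shares over all 17621 probe sets, 17.0% higher and 16.5% lower. Chaperones, ribosomal proteins and chloroplast gene expression lie at the top and ferritin and metallothionein, sulfur assimilation and jasmonate at the bottom.

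Whether iron withdrawal acted alike without zinc was asked with the –Fe–Zn and –Zn shoots, which share no array with the pair above. There, 696 probe sets (3.95%) were at least 2-fold higher and 773 (4.39%) at least 2-fold lower without iron, 8.34% in either direction. Of the 1562 rises with zinc, 256 (16.4% of them, 36.8% of the other set) were rises here too and 70 were falls. Of the 1309 falls, 308 (23.5%, and 39.8% of the other set) recurred and 66 were rises. The test of the difference between the pairs, the interaction of iron and zinc, passed for 4313 probe sets (24.5%). It passed for 5417 with the middle-to-3′ covariate, and for 360 with the covariate but without the root –Fe–Zn arrays. At adjusted p under 0.05, 10.5% of all probe sets rose and 12.1% fell in the pair without zinc. These 2 shares are the background for the gene group counts of that pair.

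Several iron transport and storage genes passed in the same direction in both pairs. The difference without zinc was 3.44 ± 0.33 for ys1, 5.61 ± 0.23 for the oligopeptide transporter, -2.63 ± 0.25 for fer1, -1.76 ± 0.20 for fer2, -1.85 ± 0.27 for zinc transporter 4, -3.13 ± 0.44 for ZRT-IRT-like protein 5 and -1.45 ± 0.16 for the type 2 metallothionein. For aox2 it was 4.36 ± 0.12, for asn1 4.50 ± 0.39, for glu1 4.21 ± 0.24, for BCH2 1.87 ± 0.19 and for KS -4.53 ± 0.32. GRMZM2G425728, a gene known here only by its model name, rose in both, by 6.23 ± 0.24 with zinc and 6.02 ± 0.24 without. All these values passed the test. Of the other members that fell with zinc, ABC transporter C family member 14 (-0.95 ± 0.31, adjusted p = 0.0342) and NRAMP transporter1 (-1.23 ± 0.21, adjusted p = 0.000291) fell without zinc too. The cation transmembrane transporter differed by -0.61 ± 0.55 (adjusted p = 0.53) and mtl2 by -0.12 ± 0.25 (adjusted p = 0.913) without zinc, and neither passed. Magnitudes still differed by zinc supply for some, with interaction p-values (adjusted) of 3.94e-06 for the oligopeptide transporter, 1.08e-05 for zinc transporter 4 and 0.000667 for PEAMT, whose difference without zinc was -3.30 ± 0.43.

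Most chaperone rises did not recur, as 2 of 14 probe sets rose and 4 fell without zinc. The small heat shock protein hsp18a differed by -1.16 ± 0.22, hsp101 by -1.43 ± 0.30 and bip1 by 0.34 ± 0.12 in that pair, and the interaction passed for each (adjusted p = 3.63e-10, 1.61e-06 and 8.12e-10). Without zinc the level of hsp18a was high with and without iron, at 9.97 ± 0.12 in –Fe–Zn and 11.1 ± 0.04 in –Zn shoots (SD, n = 3 each). The level of me3 was 2.69 ± 0.40 in –Fe–Zn and 2.61 ± 0.34 in –Zn shoots (SD, n = 3 each), near the floor. In this pair me3 differed by 0.09 ± 0.16, expa1 by 0.13 ± 0.20, bx1 by -0.43 ± 0.16 and CesA-3 by -0.35 ± 0.14, none past the test. Ribosomal protein genes rose in 3 of 28 there, about the 10.5% over all probe sets, and chloroplast gene expression genes in 5 of 26. The middle-to-3′ measure given above was higher in –Fe than in +Fe+Zn shoots and slightly lower in –Fe–Zn than in –Zn shoots. Without zinc, antenna and photosystem genes fell in 7 of 13 probe sets and leaf markers in 9 of 22, and the difference of these counts from the pair with zinc was not tested.

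**Figure D5:**
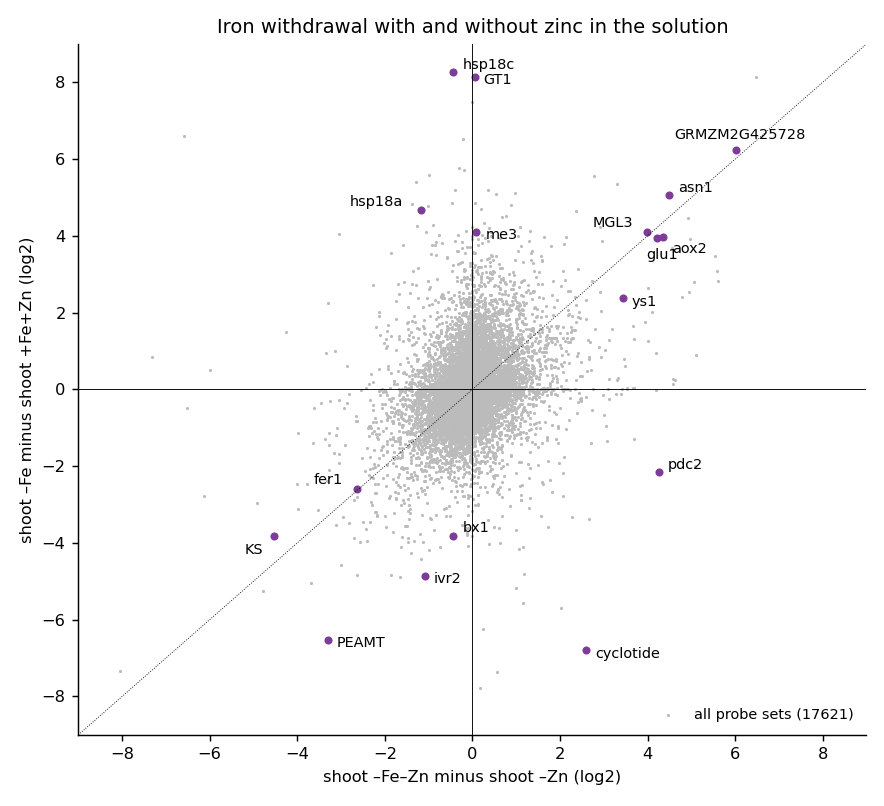
Difference made by iron withdrawal for 17621 probe sets with zinc in the solution (y axis, –Fe minus +Fe+Zn, log2) against the same without zinc (x axis, –Fe–Zn minus –Zn, log2), with the line of equal differences dotted. Purple points mark named genes. fer1, ys1, aox2, glu1, MGL3, asn1 and GRMZM2G425728 lie near the line, hsp18c, GT1 and me3 near 0 on the x axis, and cyclotide and pdc2 have opposite signs in the pairs.

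Roots, compared in the same way (–Fe against +Fe+Zn), had 773 probe sets at least 2-fold higher (4.39%) and 915 lower (5.19%). Of the shoot rises, 188 (12.0%, and 24.3% of the root set) were root rises and 95 were root falls, and of the shoot falls 220 (16.8%, and 24.04% of the root set) were root falls and 23 were root rises. The interaction of iron and tissue passed for 5375 probe sets (30.5%). It passed for 5876 with the middle-to-3′ covariate, and for 1547 with the covariate but without the root –Fe–Zn arrays. At 2-fold or more, 38 probe sets rose in the shoot, in the zinc-free shoot and in the root alike, among them ys1, aox2, gst42 and rpo2, and 63 fell in all of them, among them fer1, FDX6, CAT3, ZRT-IRT-like protein 5, zinc transporter 4, apr and bx6. In roots the difference was 1.19 ± 0.33 for ys1, -1.88 ± 0.25 for fer1, 2.79 ± 0.12 for aox2 and -1.93 ± 0.21 for FDX6. Nicotianamine synthase 3 fell in both organs, by -2.67 ± 0.14 in roots, and its shoot difference minus its root difference was 2.04 ± 0.20 (adjusted p = 4.98e-07). A probe set of nas1 that lay near the floor in shoots rose by 1.77 ± 0.39 in roots, and its shoot difference minus its root difference was -2.07 ± 0.55 (adjusted p = 0.00786). The asn1 gene, which rose in both shoot pairs, differed by -0.21 ± 0.39 in roots (adjusted p = 1).

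Of 222 genes with at least 2 probe sets, 40 had 2 or more that passed in the shoot pair, and 3 of these had probe sets passing in both directions, lhcb6, the cystatin cpi2 and GRMZM2G023289. In 10 genes the brightest probe set did not pass and another rose, as in asr1, eno1, fdx3 and GPC1, and in 4 another fell. Most probe sets bear no gene name here. Of these, the largest rise was at 10.59, 10.25 and 9.93 in –Fe against 2.73, 2.78 and 2.82 in controls. The next was at 9.01, 8.91 and 8.64 in –Fe against 2.24, 2.24 and 2.26 in controls, with differences of -6.58 without zinc and 6.74 in roots. The largest falls were at 3.16, 2.75 and 2.28 in –Fe against 10.50, 10.77 and 10.24 in controls, and at 2.78, 3.54 and 2.78 in –Fe against 10.36, 10.46 and 10.34 in controls. Neither fall recurred without zinc, where the differences were 0.17 and 0.57.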

How the data were processed

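Total RNA of maize shoots and roots was hybridised to Affymetrix maize genome arrays, 1 per sample, with 3 biological replications per treatment as the design text gives. The values deposited by the authors are log2 expression levels of 17734 probe sets on 24 arrays. The study's methods name GCRMA for background correction and normalisation, whereas the submitters' processing notes list RMA, affy and limma with no versions, so which method made the values is not settled here. Array scans were not used here, and the number of arrays limits the precision.

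The deposited log2 values were fitted without further scaling with limma 3.58.1 in R 4.3.3 (lmFit with 8 group means over 24 arrays, eBayes). p-values were adjusted over 17734 probe sets by Benjamini-Hochberg, and the threshold was 0.05. The comparison was –Fe against +Fe+Zn in shoots. It was set beside 2 comparisons that share no array with it, shoot –Fe–Zn against –Zn and root –Fe against +Fe+Zn, and the difference was tested as an interaction in each case. Exact permutation of 3 against 3 arrays cannot give a p under 0.1, so none is given. Summaries used Python 3.11.15, pandas 2.3.3 and numpy 2.4.6, and the fit was tested on simulated data.

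The platform annotation gave 1 gene for 1452 probe sets, several for 1 and none for 16281. The study's gene table named 92 probe sets, which the study chose on these samples. Named genes were the 15 largest rises and 15 largest falls with separate groups, up to 6 changed probe sets per gene list, all members of lists of up to 8, the study's named probe sets, the 5 largest interactions at each end and the 2 largest unnamed rises and falls. The genes ys1, nas1, nas2, nas3, DMAS1, fer1, fer2, hsp18c, ivr2, glu1, gst42, CAT3, asn1 and PEAMT were fixed members, named whatever their value. Members needed to describe a list that did not change, and other probe sets of a named gene, were added after their values were seen. Members and lists were chosen with earlier results of these data known. Alternatives were leaving out dim probe sets, quantile normalisation, centring of arrays on their medians, a robust variance prior with an intensity trend, other sets of arrays, control probe sets left out, a replicate block, the middle-to-3′ control signal as a covariate, each array left out, other call rules and 1 probe set per gene. Leaving out probe sets at the floor, and the covariate without the root –Fe–Zn arrays, were chosen after seeing the data.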

Additional observations from a re-analysis of the deposited data

Results flagged for a closer look

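The difference made by iron withdrawal in the shoot varied with zinc supply for 4313 probe sets and with the organ for 5375 by limma's interaction tests at adjusted p under 0.05. With the middle-to-3′ covariate the counts were 5417 and 5876. With the covariate but without the root –Fe–Zn arrays they were 360 and 1547. The interaction values are differences of log2 differences, with zinc minus without zinc, or shoot minus root.

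Among named genes, the largest positive interactions with zinc were those of hsp18c (8.69), GT1 (8.09), hsp18a (5.85), asr1 at its dimmer probe set (4.80) and hsp18f (4.78). The largest negative ones were those of cyclotide (-9.40), pdc2 (-6.42), the profilin prf1 (-4.65), plr354a (-4.43) and GPC1 at its brightest probe set (-4.30). Between organs they were largest for asn1 at its dimmer probe set (8.92), hsp18c (8.37), both probe sets of GRMZM2G425728 (8.06 and 7.97) and GT1 (6.69), and most negative for PEAMT (-5.68), cyclotide (-4.10), KS (-3.84), bx1 (-3.66) and IRL (-3.59).

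The array's control probe sets are outside the comparison. Of 113, 10 were higher and 0 lower in –Fe than in +Fe+Zn shoots at adjusted p under 0.05. The middle probe sets of the maize control transcripts differed by 4.35 for cyclophilin, 2.94 for GAPDH and 1.82 for ubiquitin, on the log2 scale.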

How the results depend on the processing

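The 2-fold counts of 1562 higher and 1309 lower probe sets became 1540 and 1291 with an adjusted p, and 2999 and 2913 with an adjusted p and no fold minimum. Leaving out each of the 6 arrays gave 1496 to 1601 higher and 1284 to 1338 lower, and at adjusted p 2640 to 2818 higher and 2568 to 2613 lower. The interactions ranged from 3794 to 3910 for zinc and 4802 to 4914 for tissue. The share of higher among 2-fold calls was 54.4%, against 51.0% after quantile normalisation and 51.2% after median centring, which moved the median difference to -0.04. Apart from the covariate without the root –Fe–Zn arrays, given below, no other alternative moved these counts by over 1.5 times.

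Same-numbered –Fe and +Fe+Zn shoots had correlations of deviations of 0.137, 0.0102 and 0.0840. Between the other shoot groups these ran from -0.468 (–Zn with –Fe–Zn) to 0.276 (–Fe with –Fe–Zn). Differently numbered arrays were not compared, so whether replicate numbers pair the samples is not settled. With the replicate block 1561 were higher and 1305 lower (2947 and 2826 at adjusted p), with 4093 and 5180 interactions.

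The middle-to-3′ signal as a covariate gave 2089 higher and 1645 lower. Among 282 named probe sets it kept direction and call for 214, ended the call for 34, added 17 and turned 17. The turned differences were nas1 -2.46, cation transmembrane transporter 0.23, fer2 at its floor-level probe set 0.41, Rubisco small subunit 2 -2.54, phosphoglycerate mutase -1.22, eno1 -0.0081, V0 domain of the V-type ATPase -0.55, gsh1 -0.65, rpp1a -0.067, RP-P0 -0.21, MNB1b -0.18, pcna1 0.29, TIP1-1 -0.012, V-type ATPase subunit E3 -1.09, RGP -1.94, UDP-glucose 6-dehydrogenase -1.07 and UGlcAE 1.03. The cause was not tested. This covariate moved 29 of 86 list counts by over 1.5 times, and fits to only the 6 arrays compared moved 19.

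The root –Fe–Zn arrays held 89.6% of the covariate's spread within groups, so its effect in shoots rests mainly on them. Without these arrays, a choice made after seeing the data, the covariate gave 1074 higher and 921 lower (388 and 282 at adjusted p, with 360 zinc and 1547 tissue interactions) and moved 74 list counts, with a median SE of 0.67 against 0.29. Among the 282 named probe sets it ended the call for 145, added 1 and turned 13. Of the 34 calls ended with all arrays 23 were ended here, 9 turned and 2 were regained, and of the 17 turned 2 were turned here. Its turned differences were pgr5 1.01, psan1 0.11, Rubisco small subunit 2 -5.08, vacuolar ATP synthase subunit B -0.0058, pdi -2.02, ZmPIP2-2 -0.39, CesA-4 0.20, aos1 -0.12, aprl3 0.21, PER42 0.28, knox7 -0.0036, TIP1-1 -0.035 and a polygalacturonate galacturonosyltransferase 0.35.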
